A study of Homo sapiens with 8 samples.

Results

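miR-331 is a microRNA (miRNA) hairpin that gives 2 mature products, hsa-miR-331-5p and hsa-miR-331-3p (miR-331-5p and miR-331-3p below). They were taken by name, as 2 of the 1818 mature miRNA names with reads in at least 1 library, and both had reads in all 8 libraries. The hairpin was chosen by its R1855L values, a lower 3p level and a higher 5p to 3p ratio than with wild-type DICER. The libraries came from HCT116, a human colorectal carcinoma cell line, in which DICER had been put back ("rescue") in 1 of 4 forms. These were DICER with the substitution R1855L, DICER with R821H, DICER with R1003Q, and wild-type DICER (WT), with 2 libraries each. The labels do not say how the cells' own DICER was removed, how the rescue DICER was expressed or whether a group is 1 clone. They do not call the replicates separate cultures either, so p-values reflect only how far these libraries differ, and that may be technical. Small RNAs were counted by AQ-seq, a library method with reduced ligation bias.

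DICER, an RNase III enzyme, cuts the loop off a precursor hairpin and leaves a duplex of a 5p and a 3p strand. One strand of the duplex, the guide, is kept by an Argonaute protein and the other, the passenger, is mostly degraded, and in human cells the choice is known to depend on the first base of each strand and on how firmly the ends of the duplex are paired. The guide finds its target mRNAs mainly through its seed, bases 2 to 8, so a hairpin that changes its main strand presents another seed. miR-331-3p is usually listed as the main product of its hairpin and has been reported to repress ERBB2, a growth factor receptor. The residue changed in R1855L lies in the C-terminal double-stranded RNA-binding domain of DICER, and that changed in R1003Q lies in the PAZ domain, which holds the end of the precursor.

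Counts per mature name do not show at which base the reads of these libraries began. The 2 strands are printed here as reference sequences because each carries its own seed. They come from RefSeq (GRCh38.p14, human chromosome 12, plus strand), are written 5′ to 3′, and have the seed in capitals.
miR-331-5p: cUAGGUAUggucccagggaucc
miR-331-3p: gCCCCUGGgccuauccuagaa

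The 5p strand spans chr12:95308445-95308466 and the 3p strand chr12:95308480-95308500, with 13 bases between them. No other of the 2370 mature names in the RefSeq table has either seed. The nearest other mature sequences were miR-125a-3p for the 5p strand, at 8 base edits, and miR-326 for the 3p strand, at 7 edits, and both strands had whole read counts in every library. The gene, MIR331 (12, 95308420 to 95308513 in GENCODE 29, GRCh38), overlaps no other annotated gene. The protein-coding gene VEZT ends 5630 bases upstream on the same strand, and MIR3685 begins 1410 bases downstream. miR-3685 was not among the names counted in any library.

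Neither strand begins with the base most frequent among the miRNAs measured here. The 5p strand begins with C, the first base of 21.8% of the 542 tested names with a RefSeq sequence, and the 3p strand with G, the first base of 13.1%. U began 37.5% and A 27.7%. Paired with each other by RNAduplex, the 2 mature strands formed 16 base pairs (10 G-C, 5 A-U and 1 G-U) at -27.0 kcal/mol, the 32nd most stable of 143 pairs with both sequences (median -22.7). The 5p strand was paired from its base 1, but the 3p strand only from its base 3, so the start of the 3p strand was left unpaired. Of the first 4 base pairs formed, 2 were G-C at the end that holds the start of the 5p strand, and 3 were G-C at the end that holds the start of the 3p strand. At the latter end 30 of the 143 pairs had 3 or more G-C. Which end is the firmer was not tested.

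miR-331 carried most of its reads on the 3p strand in WT, R821H and R1003Q libraries and on the 5p strand in R1855L libraries. The R1855L libraries had 743 and 160 reads of miR-331, of which 611 in replicate 1 were 5p and 19 in replicate 2 were 3p. The R821H libraries had 732 and 227 reads of 5p and 2255 and 568 of 3p. The R1003Q libraries had 278 and 195 reads of 5p and 1031 and 560 of 3p, and the WT libraries 311 and 998 of 5p and 1193 and 2630 of 3p (replicates 1 and 2 throughout). In reads, the 5p strand outnumbered the 3p strand 4.63 and 7.42 times in R1855L, whereas the 3p strand outnumbered the 5p strand 3.08 and 2.50 times in R821H, 3.71 and 2.87 times in R1003Q and 3.84 and 2.64 times in WT.

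As a share of all miR-331 reads, the 5p strand made up 82.2% (exact Clopper-Pearson 95% interval 79.3 to 84.9) and 88.1% (82.1 to 92.7) in the R1855L libraries. It made up 24.5% (23 to 26.1) and 28.6% (25.4 to 31.8) in R821H and 21.2% (19.1 to 23.6) and 25.8% (22.7 to 29.1) in R1003Q. In WT the share was 20.7% (18.7 to 22.8) and 27.5% (26.1 to 29). Both R1855L libraries lay above all 6 others, and the ranges of R821H, R1003Q and WT overlapped one another. How many other pairs separate the libraries in this way was not counted, and miR-331 was chosen by its R1855L values. The intervals cover counting error only. The WT replicates differed from each other by more than that, since their intervals did not meet.

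**Figure D1:**
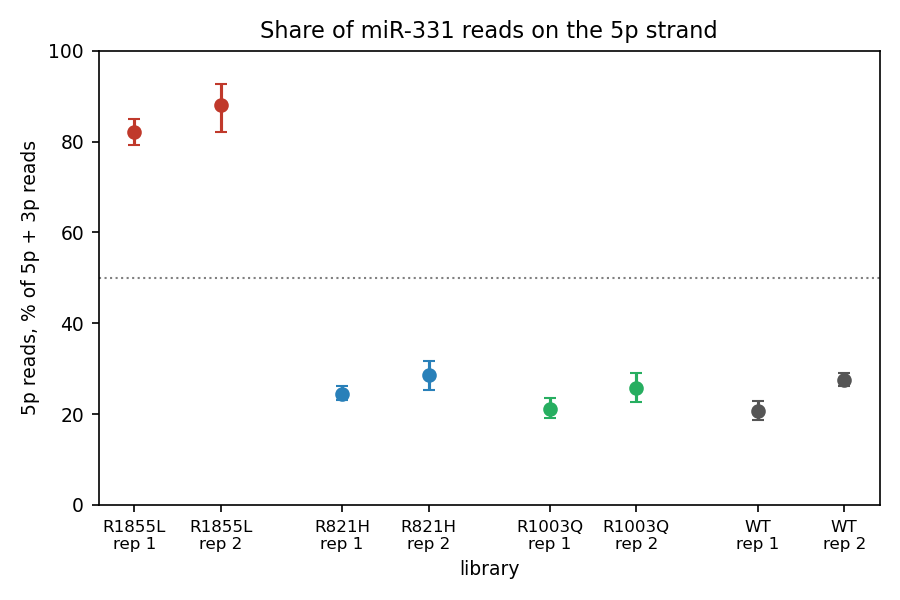
Share of miR-331 reads on the 5p strand, in percent of 5p plus 3p reads, by library. Points are single libraries, bars are exact 95% binomial intervals and the dotted line marks equal reads. The R1855L libraries sit at 82.2% and 88.1%, and the other 6 libraries between 20.7% and 28.6%.

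Library depth moved with the groups in part. Totals were 2241881 and 462805 reads in R1855L, 3340304 and 841857 in R821H, 1143373 and 675934 in R1003Q, and 1137858 and 4269231 in WT, so a deep and a shallow library stood in each of R1855L, R821H and WT, while R1003Q had only shallow ones. All 10 listed miRNAs of colon epithelium and HCT116 had reads, 9 of them in every library, and their sum was 336849 to 496367 CPM (counts scaled to a common library total) in R1855L and 344709 to 423664 in WT. The 8 listed blood-cell miRNAs summed to 755 to 1095 CPM in R1855L and 635 to 914 in WT, and 6 of muscle, liver and neuron to 629 to 1194 and 714 to 844. Their part in the results was not tested.

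The difference between R1855L and WT lay on the 3p strand. Levels are CPM after TMM scaling, which evens out differences in library composition. miR-331-3p was at 64.9 and 35.0 CPM in R1855L, 769 and 677 CPM in R821H, 922 and 796 CPM in R1003Q, and 906 and 684 CPM in WT. The highest R1855L library thus lay below the lowest of the other 6. miR-331 was chosen by these values, and the share of all names separated in this way was not counted. By read count miR-331-3p ranked 302nd and 367th among the names of the R1855L libraries, against 98th to 117th in the other 6.

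Since miR-331 was chosen for its R1855L pattern, every value that involves R1855L is a description without a test. miR-331-3p averaged 49.9 ± 21.2 CPM in R1855L and 795 ± 157 CPM in WT (SD, n = 2 each), and the fitted log2 fold change was -3.94 (SE 0.35, edgeR), a level 15.4-fold lower. Without R1855L replicate 1 it was -4.62. Against the other mutants the fitted log2 fold change of R1855L was -3.81 (SE 0.35) over R821H and -4.05 (SE 0.35) over R1003Q. These 3 comparisons share the R1855L libraries. Only 3 of 625 tested names had a lower fitted fold change than miR-331-3p in R1855L against WT. In that comparison 34 of 625 names, 5.44%, passed as lower (edgeR quasi-likelihood test, Benjamini-Hochberg adjusted p under 0.05).

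miR-331-5p stayed within a narrow range in all 4 groups. It was at 300.5 and 259 CPM in R1855L, 249.7 and 270.4 CPM in R821H, 249 and 277 CPM in R1003Q, and 236 and 259.6 CPM in WT. The groups overlapped, and the R1855L and WT means of 279.9 ± 29 and 247.9 ± 16.5 CPM (SD, n = 2 each) differed by about the spread of the libraries. The fitted log2 fold change of R1855L over WT was 0.18 (SE 0.22), beside a median of 0.13 over all 625 names, and it was -0.040 without R1855L replicate 1. By mean level the order was R1855L, R1003Q, R821H and WT, with no neighbours further apart than the spread of their libraries. miR-331-5p ranked 165th to 180th by reads in the 8 libraries.

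**Figure D2:**
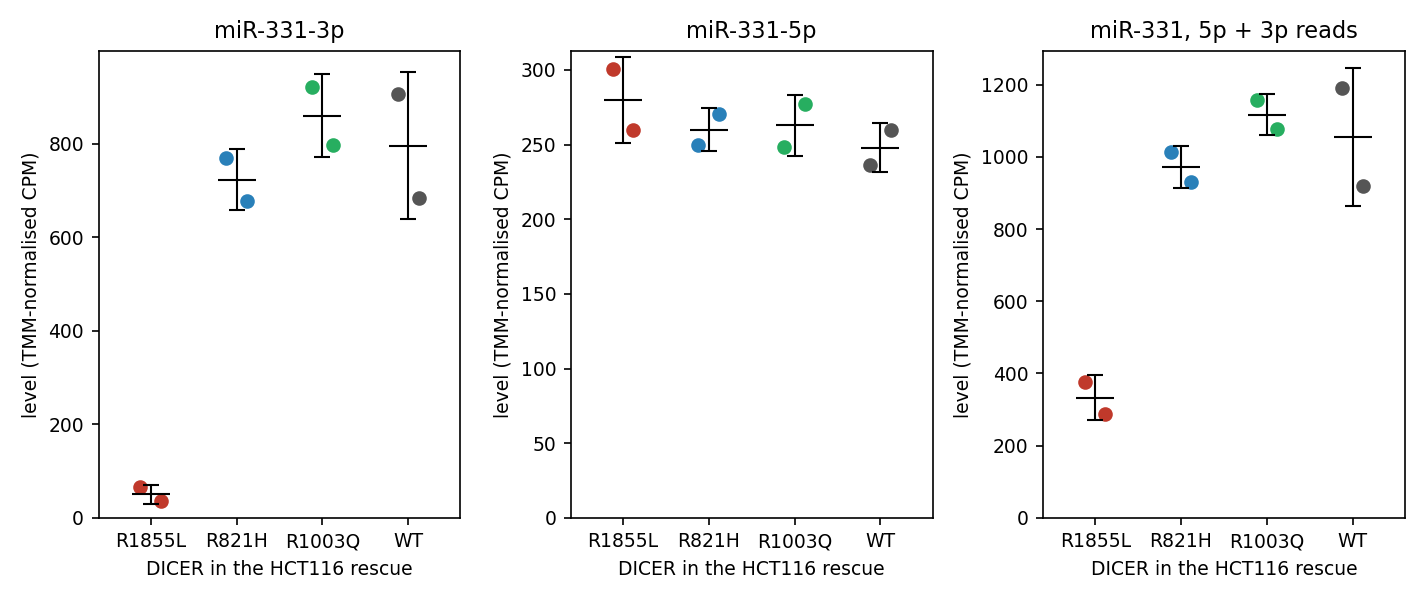
Levels of miR-331-3p, miR-331-5p and both together (TMM-normalised CPM, linear axes from 0) by DICER form. Points are libraries, horizontal bars are means and error bars are SD (n = 2). R1855L averages 49.9 CPM of 3p against 795 CPM in WT, and 279.9 CPM of 5p against 247.9 CPM in WT.

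The reads of both strands together, most of which were 3p in WT, were also lower in R1855L. They came to 376 and 289 CPM in R1855L, 1013 and 931 CPM in R821H, 1157 and 1077 CPM in R1003Q, and 1190 and 921 CPM in WT, in a table where the 5p and 3p rows of each hairpin were added. Both R1855L libraries lay below the other 6, and the share of all rows that do so was not counted. The fitted log2 fold change of R1855L over WT was -1.66 (SE 0.24), a level 3.16-fold lower, and 22 of 464 rows of that table had a lower one. Of the 464 rows, 25 (5.39%) passed as lower. In bulk RNA, fewer cells with the product and less of it per cell cannot be told apart.

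The 5p to 3p ratio within a hairpin does not depend on how libraries are scaled. The log2 ratio of miR-331, with 0.5 added to each count, was 2.21 and 2.86 in R1855L, -1.62 and -1.32 in R821H, -1.89 and -1.52 in R1003Q, and -1.94 and -1.40 in WT. The means were 2.53 ± 0.46 in R1855L and -1.67 ± 0.38 in WT (SD, n = 2 each), a fitted change of 4.20 (SE 0.37, limma). Over R821H the change was 4.005 and over R1003Q 4.24, and miR-331 had the largest change of all 174 tested pairs in both. Over WT it was second to miR-6765, whose 3p strand had 1 and 0 reads in R1855L. The change over WT was 3.60 between the deep libraries and 4.80 between the shallow libraries.

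**Figure D3:**
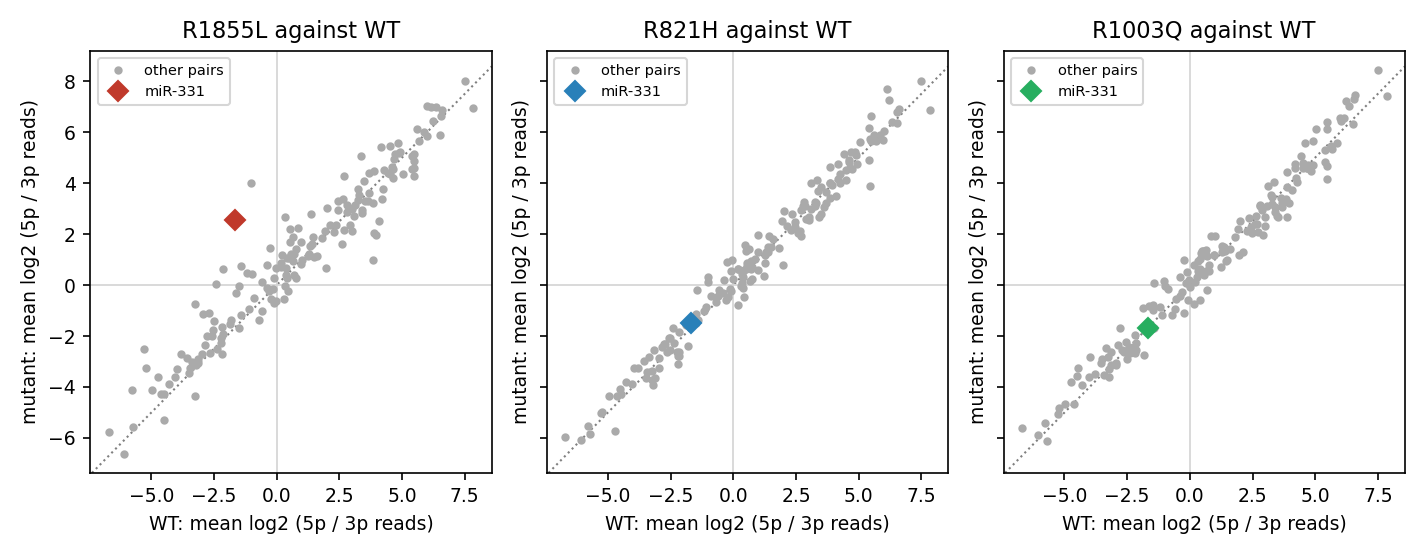
Mean log2 ratio of 5p to 3p reads in each mutant (vertical) against WT (horizontal) for 174 miRNA pairs. Each point is a hairpin, averaged over 2 libraries, and the dotted line marks equal ratios. miR-331 is at -1.67 in WT and at 2.53 in R1855L, -1.47 in R821H and -1.70 in R1003Q.

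Most pairs kept their main strand. Of 58 pairs with more 3p than 5p reads in both WT libraries, 7 had more 5p reads in both R1855L libraries, 3 in both R821H libraries and 1 in both R1003Q libraries. The 7 were miR-331, miR-203b, miR-455, miR-556, miR-5699, miR-574 and miR-6765, and the names beside miR-331 were chosen after their values were seen. miR-455 had 388 and 86 reads of 5p against 232 and 76 of 3p in R1855L, with log2 ratios of 0.74 and 0.18 in R1855L and -1.22 and -1.14 in WT. Some of the 7 had nearly equal strands. The log2 ratios of miR-574 were 0.31 and 0.22 in R1855L and -0.19 and -0.0095 in WT. In R1855L replicate 2, miR-5699 had 7 reads of 5p against 6 of 3p. Of 99 pairs with more 5p reads in both WT libraries, only miR-548e had more 3p reads in both R1855L libraries. miR-331 was not among the pairs that exchanged strands in R821H or R1003Q, which were miR-574 in both mutants and miR-5699 and miR-6765 in R821H. In R821H, miR-6765 had only 13 and 10 reads of 5p against 12 and 9 of 3p.

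No difference in miR-331 was found between R821H and WT. miR-331-3p averaged 723 ± 65.5 CPM in R821H and 795 ± 157 CPM in WT (SD, n = 2 each; log2 fold change -0.14, 95% interval -0.85 to 0.58, edgeR adjusted p = 0.994). For miR-331-5p the log2 fold change was 0.067 (-0.44 to 0.58, edgeR adjusted p = 0.994), and for both strands together -0.12 (-0.67 to 0.44, edgeR adjusted p = 0.999). The ratio changed by 0.20 (-0.64 to 1.03, limma adjusted p = 0.989). The R821H and WT libraries overlapped in all 4 measures. In this comparison edgeR called 0 of 625 names (0%) and 0 of 464 hairpin rows (0%), and limma called 0 of 174 ratios (0%). DESeq2 called 1 name, and 20 names and 3 ratios had an unadjusted p under 0.05.

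No difference was found between R1003Q and WT either. miR-331-3p averaged 859 ± 88.8 CPM in R1003Q and 795 ± 157 CPM in WT (SD, n = 2 each; log2 fold change 0.11, 95% interval -0.60 to 0.83, edgeR adjusted p = 0.962). For miR-331-5p the log2 fold change was 0.083 (-0.43 to 0.59, edgeR adjusted p = 0.958), and for both strands together 0.083 (-0.47 to 0.64, edgeR adjusted p = 0.975). The ratio changed by -0.037 (-0.87 to 0.80, limma adjusted p = 0.997). edgeR called 0 of 625 names (0%), DESeq2 also 0, and limma 0 of 174 ratios (0%), where 31 names and 8 ratios had an unadjusted p under 0.05. The WT libraries enter these comparisons and also the comparison for which miR-331 was chosen.

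Between R1003Q and R821H no difference in miR-331 was called either. The other 4 libraries enter this comparison through the shared estimate of the spread, and without them limma gave the ratio an adjusted p of 0.923. The log2 fold change of R1003Q over R821H was 0.25 for miR-331-3p (95% interval -0.47 to 0.96, edgeR adjusted p = 0.997) and 0.016 for miR-331-5p (-0.50 to 0.53, edgeR adjusted p = 1.00). The ratio changed by -0.23 (-1.07 to 0.61, limma adjusted p = 0.987). edgeR called 0 of 625 names (0%), DESeq2 also 0, and limma 0 of 174 ratios (0%), where 10 names and 2 ratios had an unadjusted p under 0.05. By mean level of miR-331-3p the order was R1003Q, WT, R821H and R1855L, and the first 3 did not differ from their neighbours beyond the spread of the libraries. The intervals leave room for changes of up to about 1 log2 unit in the ratio.

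Hairpins whose 3p strand is generally known as the guide were compared with miR-331 as a list, written with earlier results of these data known and without miR-331. Of 41 listed 3p-guide hairpins 29 had a same-named pair with enough reads. Not all of them had more 3p than 5p reads in these cells. In both WT libraries miR-454 (log2 ratios of 1.63 and 0.076) and miR-126 (1.25 and 0.27) had more 5p reads. miR-29c and miR-130b had more 5p reads in WT replicate 1 only. Between R1855L and WT, 4 of the 29 ratios passed toward 5p and 0 toward 3p, with a median change of 0.66, beside 10 of 174 (5.75%) toward 5p, 3 of 174 (1.72%) toward 3p and a median of 0.23 over all pairs. The 10 include miR-331. The called ones with the largest changes were miR-25, which shares its seed with miR-92a (2.77, SE 0.34, limma adjusted p = 0.00179), miR-27b (1.95, SE 0.35, limma adjusted p = 0.0118) and miR-23b (1.65, SE 0.33, limma adjusted p = 0.0196), and the fourth was miR-29a (1.44, SE 0.35, limma adjusted p = 0.0374). Without WT replicate 1 the count was 1, and without WT replicate 2 it was 2.

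In the called 3p-guide hairpins the 3p strand remained the more abundant in R1855L, with the exception of miR-29a in replicate 1. The log2 ratio of miR-25 was -2.62 and -2.40 in R1855L against -5.40 and -5.15 in WT. That of miR-27b was -3.20 and -3.35 against -5.46 and -4.99, and that of miR-29a was 0.26 and -0.36 against -1.50 and -1.47. The WT mean of miR-331 (-1.67) lay nearer to equal strands than those of miR-25 (-5.28) and miR-27b (-5.22), and that of miR-29a (-1.49) nearer still. In R821H and R1003Q none of the 29 passed, and neither did any of all 174 pairs (0%). The medians of the 29 were 0.24 in R821H and 0.38 in R1003Q, beside 0.11 and 0.059 over all 174 pairs.

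Of 41 listed 5p-guide hairpins 32 were tested, and in R1855L against WT 0 passed toward 5p and 1 toward 3p, with a median of -0.055. The one that passed was miR-99b (-1.56, SE 0.35, limma adjusted p = 0.0293), whose 5p strand had the larger change (log2 fold change -2.25, against -0.75 for 3p). This call was lost without either WT, either R821H or either R1003Q library, and the median was 0.26 without WT replicate 2 and 0.24 without R1855L replicate 2. None of the 32 passed in R821H or R1003Q, where 0 of all 174 pairs (0%) passed.

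In all 9 other pairs called toward 5p in R1855L, the 3p strand had the larger fitted change of the 2 strands, as in miR-331. The margin was small in miR-33b (log2 fold change 0.82 for 5p and -0.90 for 3p) and miR-29a (0.71 and -0.79). Of the 3 pairs called toward 3p, the 3p strand had the larger change in 1 (miR-139), and the 5p strand in miR-99b and miR-185. Among 171 pairs with both strands tested, the median log2 fold change in R1855L over WT was 0.20 for 5p and 0.0080 for 3p strands. A 3p log2 fold change below -2 was found in 9 of them, and their 5p changes were spread widely. The 5p change was -2.02 in miR-222, -2.12 in miR-1307 and -1.95 in miR-615, but -0.21 in miR-1226, -0.082 in miR-3200, 0.18 in miR-331, 0.30 in miR-766, 0.42 in miR-203b and 1.08 in miR-6765. These names were chosen after their values were seen. No 3p strand was below -2 in R821H or R1003Q. Among 5p strands, 3 were below -2 in R1855L (miR-222, miR-1307 and miR-99b), 0 in R821H and 1 in R1003Q (miR-98).

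**Figure D4:**
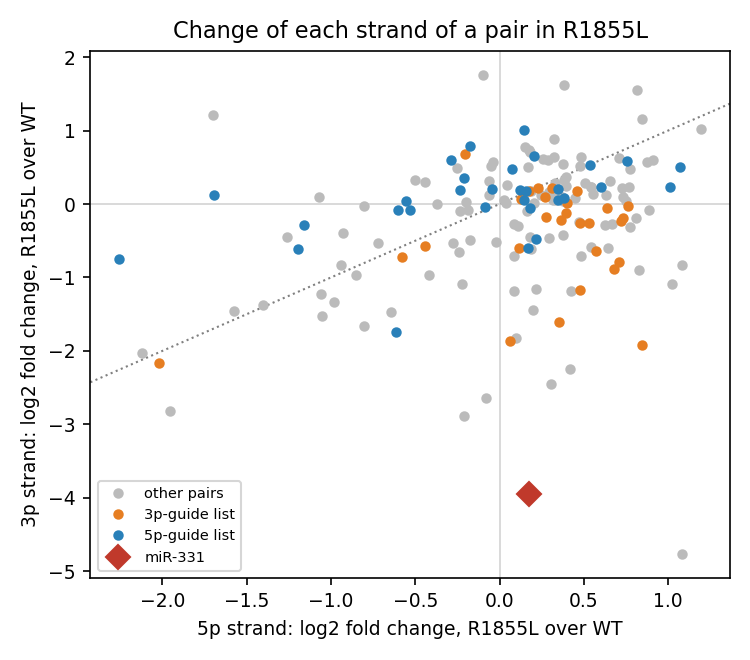
Log2 fold change of the 3p strand (vertical) against that of the 5p strand (horizontal) in R1855L over WT, for 171 pairs with both strands tested. Colours mark the 3p-guide and 5p-guide lists, and the dotted line marks equal change of both strands. miR-331 is at 0.18 for 5p and -3.94 for 3p.

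The pairs with ratios most like miR-331 across the 8 libraries were named by the smallest root mean square difference between log2 ratios, each centred on its own mean. Of 173 pairs these were miR-25 (0.69), miR-203b (0.81), miR-6765 (0.90), miR-1226 (1.08) and miR-27b (1.08), where the number is that difference in log2 units. Their 3p strands are printed here to set their seeds, in capitals, beside that of miR-331-3p (RefSeq, GRCh38.p14, 5′ to 3′).
miR-25-3p: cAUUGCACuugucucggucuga
miR-203b-3p: uUGAACUGuuaagaaccacugga
miR-6765-3p: uCACCUGGcuggcccgcccag
miR-1226-3p: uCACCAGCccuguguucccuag
miR-27b-3p: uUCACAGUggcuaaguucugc

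No 2 of the 6 strands share a seed. miR-331-3p is the only one of them that begins with G. The genes lie on chromosome 7 (MIR25), 14 (MIR203B and MIR6765), 3 (MIR1226) and 9 (MIR27B). miR-1226 is a mirtron, a hairpin released by splicing.

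By level, with at least 50 CPM on average, the names most like miR-331-3p over the 8 libraries were miR-375 (root mean square difference of 0.66 log2 units), miR-3200-3p (0.68), miR-615-3p (0.74), miR-484 (0.74) and miR-222-3p (0.79), of 338 names. Each of the 5 was lower in R1855L than in WT, which follows from choosing them by a likeness that included the R1855L libraries. miR-375, a miRNA of endocrine cells, averaged 10.3 CPM in R1855L and 60.2 CPM in WT, and miR-222-3p, which represses p27, 17776 CPM in R1855L and 79312 CPM in WT. The names most like miR-331-5p were miR-148b-5p (0.10), miR-130b-5p (0.11), miR-30e-5p (0.11), miR-196a-5p (0.12) and miR-196b-5p (0.13), all between -0.10 and 0.38 in log2 fold change of R1855L over WT. Their small changes likewise follow from the choice. With the limit at 10 CPM, 3 of the 5 nearest names stayed the same for miR-331-3p and all 5 for miR-331-5p.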

How the data were processed

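The authors deposited 1 table of estimated counts per library, reads per mature miRNA name, not normalised or pooled. Each holds 19 to 33 names with fractional reads, and a name missing from a table was taken as 0. Per the labels' protocols, TRIzol total RNA entered AQ-seq and was sequenced on a NovaSeq. Tools in the submitters' processing notes are cutadapt, BWA and bedtools, with the builds hg38 and mm10, all without roles or versions. The miRNA annotation release is not given in the sources used here.

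Rounded counts were fitted in edgeR 4.0.16 (R 4.3.3): filterByExpr (625 of 1818 names), TMM scaling, and 1 robust quasi-likelihood fit to all 8 libraries. Ratios were tested with limma 3.58.1 in 174 pairs, each strand having 80 or more reads summed over libraries. Calls need a Benjamini-Hochberg adjusted p under 0.05 over all names or pairs. SE comes from the F statistic. Alternatives included DESeq2 1.42.0, other scaling and filters, the replicate block, log2 library total as a covariate and each library left out. Duplexes were computed with ViennaRNA 2.7.2, and figures with matplotlib 3.10.9.

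The members, lists, tests and alternatives were chosen with earlier results of these data known. The rule for other names took the 5 nearest profiles for each strand and for the ratio, and called list members.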

Additional observations from a re-analysis of the deposited data

How the results depend on the processing

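The log2 fold change of miR-331-3p in R1855L over WT lay between -4.62 and -3.64, that of both strands together between -1.89 and -1.52 and the ratio change between 3.87 and 4.53 under every alternative run, with the ends of all 3 set by leaving out R1855L replicate 1 or 2. For miR-331-5p, leaving out single libraries gave -0.040 to 0.26 in R1855L, -0.016 to 0.061 in R821H and -0.035 to 0.12 in R1003Q over WT, no filter gave 0.045, -0.027 and -0.070, and total counts gave -0.054 in R821H. Leaving out libraries gave -0.40 to 0.073 for miR-331-3p, -0.31 to 0.058 for both strands and -0.074 to 0.47 for the ratio in R821H over WT, and -0.17 to 0.33, -0.11 to 0.27 and -0.31 to 0.23 in R1003Q over WT. A group left with 1 library is assumed to vary like the others. In R821H and R1003Q the smallest adjusted p for miR-331 under any alternative was 0.788. Median log2 fold changes over all names in R821H were 0.042 with TMM and -0.083 with total counts.

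Counts of calls depended on the fit. For R1855L over WT, against 36 names, total counts gave 14, the replicate block 19, the library total as a covariate 162, only the 4 libraries compared 2 and single libraries left out 15 to 27. Against 13 ratios, the covariate gave 42, the 4 libraries 4 and libraries left out 4 to 14. Against 4 called 3p-guide pairs, the covariate gave 9, the 4 libraries 1 and libraries left out 1 to 5. Against 1 called 5p-guide pair, the block gave 0, the covariate 9, the 4 libraries 0 and libraries left out 0 to 1. The median of the 5p-guide pairs was 0.24 with the covariate. In R821H, against 0 names, DESeq2 gave 1 and the covariate 4, and in R1003Q, against 0 ratios, the covariate gave 3. The cause was not tested.

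Replicate numbers did not pair the libraries alike in all groups. Deviations of same-numbered libraries correlated at -0.69 between WT and R1855L, -0.68 between WT and R821H and 0.56 between R1855L and R821H. They correlated at 0.087 between WT and R1003Q, 0.022 between R1855L and R1003Q and -0.12 between R821H and R1003Q. Replicate 1 was the shallow library in WT and the deep library in R1855L and R821H. The part of depth in these correlations was not tested. With the replicate block the miR-331 ratio change in R1855L was 4.20. A block cannot alter this value, since every group holds both replicate numbers. A crossed pairing, chosen after seeing the data, gave 57 names, 26 ratios, 7 3p-guide and 3 5p-guide pairs in R1855L with the WT numbers exchanged, and 68, 23, 8 and 3 with the WT and R1003Q numbers exchanged. The shallowest library, R1855L replicate 2, holds 19 reads of miR-331-3p, which limits the precision of its ratio.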
